A study of Mus musculus with 6 samples.

Results

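The Hox genes encode homeodomain transcription factors and lie in the mouse genome in 4 clusters, each numbered by paralog from the 3′ end to the 5′ end. The members described here are the protein coding genes named *Hoxa*, *Hoxb*, *Hoxc* or *Hoxd* followed only by a number, and 39 of the 56748 genes counted met that rule. They comprised 11 *Hoxa* genes on chromosome 6, 10 *Hoxb* genes on chromosome 11, 9 *Hoxc* genes on chromosome 15 and 9 *Hoxd* genes on chromosome 2.

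RNA was sequenced from primary osteocyte cultures prepared from mouse long bones, in 3 WT libraries and 3 libraries labelled cKO. The methods describe the isolation for 7-week-old C57BL/6 mice and state that mice were matched for age. They do not give the strain background of the cKO mice, so a difference in background could not be told apart from genotype. WT mice were C57BL/6J, and cKO mice carried *Gsdmd* fl/fl alleles together with a Cre recombinase driven by the promoter of dentin matrix protein 1, the DMP1-Cre transgene. *Gsdmd* encodes gasdermin D, the pore-forming protein of pyroptosis. Cells were released by serial digestion of bone whose marrow had been flushed out and whose ends had been cut off, and were kept in culture for 7 days. All 6 cultures were stimulated with 10 ng/mL LPS (3 h) and then with 20 µg/mL aluminum hydroxide (3 h), so that each value compares the genotypes under stimulation and no unstimulated library was analysed here. The records do not say which limb a culture came from, nor whether cultures came from separate animals, so p-values measure the spread between these libraries, which may be technical.

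Hox genes give cells their position along the body axis and, through the 5′ genes of the *Hoxa*, *Hoxc* and *Hoxd* clusters, along the limb. Genes at the 3′ end act towards the head and those at the 5′ end towards the tail and the tip of the limb. Mesenchymal cells of the adult skeleton keep a pattern of Hox expression that reflects where in the body they arose, and Polycomb and Trithorax proteins keep silent and active clusters apart.

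The homeodomain binds DNA through its recognition helix, the most conserved stretch of the protein. The 42 bases that code for this helix are given on GRCm39 for 4 of the 5 members that differed at least 2-fold between the genotypes, and for the highest *Hoxa* and *Hoxc* genes as their comparison. The 18 bases of the core of the helix are in capitals, and each sequence is written on the coding strand of its gene.
*Hoxd10*, chr2:74524614-74524655, plus strand: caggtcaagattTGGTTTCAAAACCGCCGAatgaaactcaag
*Hoxb9*, chr11:96165614-96165655, plus strand: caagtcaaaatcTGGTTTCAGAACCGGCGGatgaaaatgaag
*Hoxa11*, chr6:52220391-52220432, minus strand: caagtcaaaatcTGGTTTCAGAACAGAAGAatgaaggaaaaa
*Hoxc13*, chr15:102835774-102835815, plus strand: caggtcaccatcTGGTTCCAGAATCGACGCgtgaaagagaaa
*Hoxa10*, chr6:52209543-52209584, minus strand: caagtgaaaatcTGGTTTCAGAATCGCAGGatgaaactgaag
*Hoxc10*, chr15:102879412-102879453, plus strand: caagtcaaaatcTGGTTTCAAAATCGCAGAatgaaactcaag
The core was found in 39 of 39 members, and 21 of the 42 positions held the same base in all of them. Any pair of members differed at 0 to 17 of these bases. *Hoxa6* and *Hoxb4* were identical here, as were *Hoxb3* and *Hoxd3*. *Hoxa10* and *Hoxc10* differed at 4 positions, and *Hoxc10* and *Hoxd10* at 5. Between Hox exons at different places in the genome, 0 members shared a run of 60 bases, and *Hoxa6* and *Hoxb4* shared one of 50. Exons that overlap at the same place are a separate matter, since *Hoxc10* and *Hoxc5* share 8.11% and 5.37% of their exonic bases on the same strand, and *Hoxd4* shares 13.1% of its own with *Hoxd3*.

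The libraries held between 39566835 and 49734046 counts on genes. *Gsdmd* gave 609, 699 and 549 counts in WT and 885, 937 and 1045 in the libraries labelled cKO, which is higher where the label says it was deleted (log2 fold change 0.69, SE 0.083, adjusted p = 2.27e-06 by edgeR's quasi-likelihood test and Benjamini-Hochberg adjustment). Each direction below therefore rests on the label. *Xist* was counted 4, 0 and 2 times in WT and 44817 to 51216 times in the cKO libraries, while the Y-linked gene *Ddx3y* was counted 4033 to 5455 times in WT and 0 times in each cKO library, so sex and genotype cannot be told apart. Of 12 macrophage markers, 11 were tested and all 11 rose at least 2-fold in the cKO libraries, with a summed level of 1118.5 to 1259.3 counts per 1000000 (CPM) in WT and 6068.7 to 6368.0 CPM in cKO. Of 3 smooth muscle markers tested 3 fell, from 1105.6 to 1284.9 CPM in WT to 476.7 to 537.6 CPM in cKO over the 5 muscle markers listed. Of 5 chondrocyte markers tested 4 rose and 1 fell. The chondrocyte markers listed summed to 1956.9 to 2169.5 CPM in WT and 2921.0 to 3108.8 CPM in cKO. Of 5 osteoblast markers tested 2 rose and 3 fell. The 7 osteoblast markers listed summed to 5570.6 to 6206.7 CPM in WT and 3608.9 to 3890.0 CPM in cKO. Of 6 stromal markers 3 rose and 1 fell, and the 1 neutrophil and myeloid precursor marker tested rose. Of 4 endothelial markers 1 rose and 3 fell, and of 4 lymphocyte markers 0 could be tested. Among all tested genes 20.1% rose and 19.2% fell, and 6.56% rose at least 2-fold. The osteocyte marker *Sost* had 0 counts in all 6 libraries and *Dmp1* had 0 to 6, while *Pdpn*, the only osteocyte marker with enough counts to be tested, had a log2 fold change of -0.28. The part of cell composition and of sex in the Hox values was not tested, and in these bulk samples fewer cells of a type and less RNA per cell cannot be told apart.

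Hox RNA was found in all 6 libraries and came mainly from the *Hoxa* and *Hoxc* clusters. Summed over the 39 genes it made up 304.0, 300.8 and 297.8 CPM in the WT libraries and 258.9, 252.5 and 252.8 CPM in the cKO libraries. All 3 cKO libraries lay below all 3 WT libraries, at 254.7 ± 3.59 against 300.9 ± 3.06 CPM (SD, n = 3 each). *Hoxa* genes gave 49.4% of the Hox RNA in WT and 49.2% in cKO, and *Hoxc* genes 44.4% and 42.1%. *Hoxb* genes were scarce, at 1.84% and 1.31%. The share of *Hoxd* genes was 4.35% in WT and 7.38% in cKO, and this was the only cluster whose summed level was higher in the cKO libraries, at 18.8 ± 0.984 against 13.1 ± 0.651 CPM (SD, n = 3 each).

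Levels of different genes were compared as CPM per kilobase of the deposited gene length. In WT the order was led by *Hoxc10* at 24.1, *Hoxa10* at 18.6 and *Hoxc6* at 16.4 CPM per kilobase, and the libraries of each of these lay apart from those of the next. *Hoxa11* followed at 6.91 and *Hoxa9* at 6.40 CPM per kilobase, with overlapping libraries. *Hoxc8* at 5.88 and *Hoxa7* at 4.66 CPM per kilobase came next, each apart from its neighbour below. *Hoxd8* at 3.89, *Hoxc9* at 3.77 and *Hoxa5* at 3.48 CPM per kilobase could not be ordered. In both genotypes the *Hoxa* level climbed from *Hoxa2* to *Hoxa10* with *Hoxa4* and *Hoxa6* as exceptions, and was low at *Hoxa13*, the gene that patterns the hand and foot. The cKO order was led by *Hoxa10* at 19.1 CPM per kilobase. *Hoxc10* at 16.6 and *Hoxc6* at 14.7 CPM per kilobase followed, with overlapping libraries.

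**Figure D1:**
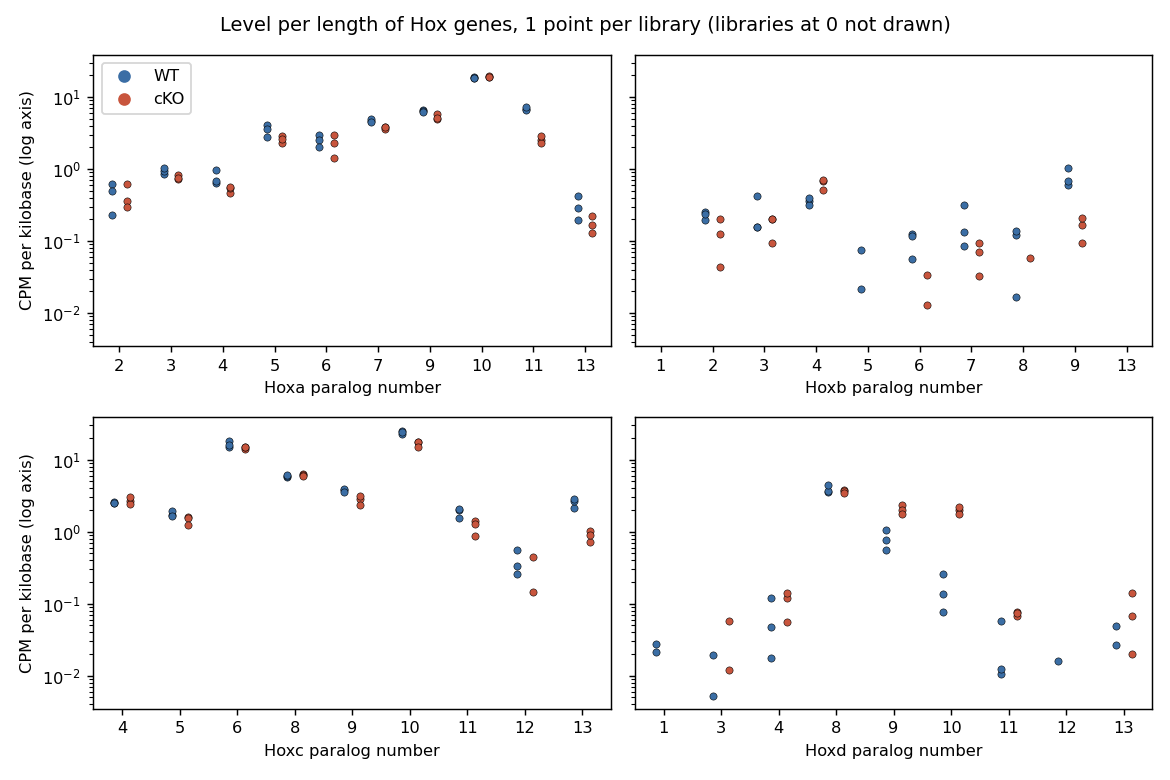
Level of each Hox gene in CPM per kilobase of gene length (log axis), with 1 point per library, WT in blue and cKO in red, and the genes of each cluster ordered by paralog number. Libraries with 0 counts are not drawn, so that *Hoxb1* and *Hoxb13* have no points, and 1 member is left out. The highest levels are those of *Hoxc10*, *Hoxa10* and *Hoxc6*, and *Hoxd10* rises from 0.156 to 1.97 CPM per kilobase.

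Of the 39 members, 29 had enough counts to be tested, 3 rose, 10 fell and 16 did not pass in the cKO libraries at an adjusted p below 0.05 by edgeR's quasi-likelihood test and Benjamini-Hochberg adjustment. Among all 17146 genes tested, 20.1% rose and 19.2% fell, a split that was 16.3% and 25% with upper-quartile scaling. The members that rose were *Hoxb4*, *Hoxd9* and *Hoxd10*, and those that fell included *Hoxa5*, *Hoxa7*, *Hoxa9*, *Hoxa11*, *Hoxb9*, *Hoxc9*, *Hoxc10*, *Hoxc11* and *Hoxc13*. With a change of at least 2-fold also required, *Hoxd9* and *Hoxd10* rose and *Hoxa11*, *Hoxb9* and *Hoxc13* fell, where 6.56% of all tested genes rose and 4.64% fell. The median log2 fold change (cKO over WT) of the 29 tested members was -0.31, with quartiles of -0.66 and 0.04, and that of all tested genes was 0.01, with quartiles of -0.22 and 0.27. The libraries of the genotypes did not overlap for 16 of the 29 tested members, where the share among all tested genes was 49.2%.

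**Figure D2:**
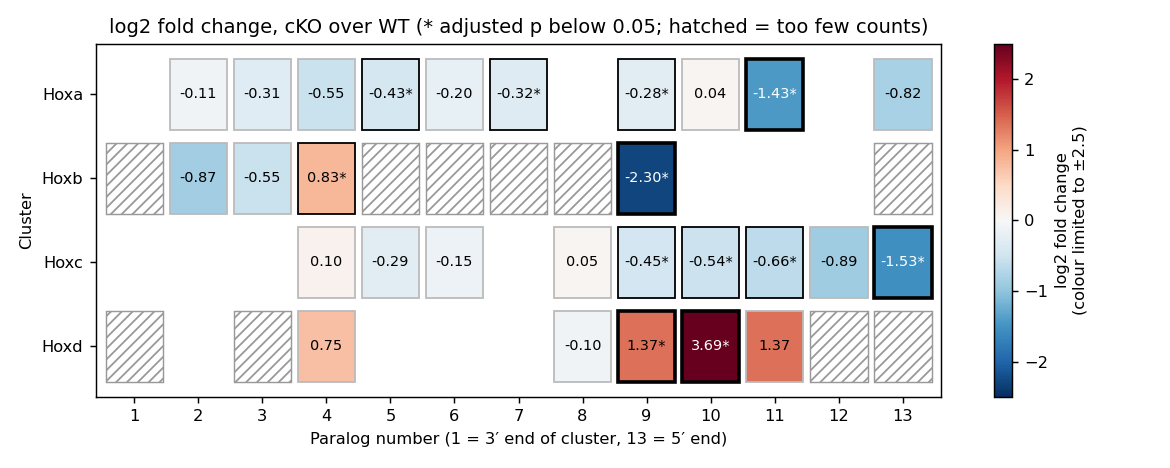
Log2 fold change (cKO over WT) of each Hox gene, with clusters as rows and paralog numbers as columns, blue for lower and red for higher in cKO. A star marks an adjusted p below 0.05, a thick frame a change of at least 2-fold as well, and hatching a gene with too few counts to test, and 1 member is not drawn. Both red cells with a thick frame, *Hoxd9* at 1.37 and *Hoxd10* at 3.69, are neighbours in the *Hoxd* cluster, and no starred *Hoxa* or *Hoxc* cell is red.

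The largest change belonged to *Hoxd10*, which acts in the limb and in the motor neurons of the lumbar spinal cord. *Hoxd10* (ENSMUSG00000050368, chr2:74522268-74525449 on mm39 as deposited, plus strand, as for the gene positions that follow) gave 11, 7 and 18 counts in the WT libraries, against 151, 127 and 179 in the cKO libraries. All 3 cKO libraries were above all 3 WT libraries by a wide margin. The gene had enough counts to be tested only through the cKO libraries, so its estimate and adjusted p are a description. The level was 0.283 ± 0.165 CPM in WT and 3.57 ± 0.374 CPM in cKO (SD, n = 3 each), a log2 fold change of 3.69 (SE 0.35) with an adjusted p of 1.31e-07 by edgeR's quasi-likelihood test and Benjamini-Hochberg adjustment.

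*Hoxd9*, its neighbour on the 3′ side and likewise a limb and spinal cord gene, moved in the same direction. *Hoxd9* (ENSMUSG00000043342, chr2:74528071-74530552, plus strand) gave 101, 80 and 46 counts in WT and 212, 168 and 173 in cKO. The genotypes did not overlap, although the WT libraries were spread from 46 to 101 counts. The level rose from 1.68 ± 0.533 to 4.36 ± 0.625 CPM (SD, n = 3 each), with a log2 fold change of 1.37 (SE 0.24) at an adjusted p of 0.000151 by edgeR's quasi-likelihood test and Benjamini-Hochberg adjustment.

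The genes on either side of this pair did not pass. *Hoxd8*, the highest *Hoxd* gene, gave 442, 505 and 466 counts in WT and 440, 395 and 433 in cKO. These libraries overlapped, at 10.7 ± 1.17 and 9.97 ± 0.464 CPM (SD, n = 3 each), and the log2 fold change was -0.10 (SE 0.11, adjusted p = 0.553 by edgeR's quasi-likelihood test and Benjamini-Hochberg adjustment). *Hoxd11*, which with *Hoxa11* patterns the forearm and the lower leg, gave 2, 12 and 2 counts in WT and 12, 13 and 14 in cKO. Its log2 fold change was 1.37 (SE 0.69), with an adjusted p of 0.133 in the same test. It had enough counts to be tested only through the cKO libraries, so its estimate is a description. WT replicate 2 decided its size and its call (2.60 without that library, adjusted p = 0.0326 in the same test). *Hoxd13*, the 5′ end of the cluster and a gene of the digits, gave 3, 6 and 0 counts in WT and 7, 2 and 16 in cKO and was not tested. *Hoxd12* had 0 to 2 counts, *Hoxd1* 0 to 2, *Hoxd3* 0 to 10 and *Hoxd4* 2 to 19 in the 6 libraries. Over *Hoxd9* to *Hoxd13* the summed level was 2.15 ± 0.45 CPM in WT and 8.43 ± 0.641 CPM in cKO (SD, n = 3 each).

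The sequences just upstream of the starts of *Hoxd10* and *Hoxd9* are given because these neighbours rose together. They are the last 120 bases before the start, from the RefSeq promoters of GRCm38.p6, on the plus strand and in that build's own coordinates, with CCAAT or its reverse complement ATTGG in capitals.
*Hoxd10*, chr2:74691771-74691890: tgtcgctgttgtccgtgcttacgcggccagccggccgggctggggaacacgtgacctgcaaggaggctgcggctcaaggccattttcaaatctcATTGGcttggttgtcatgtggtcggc
*Hoxd9*, chr2:74697643-74697762: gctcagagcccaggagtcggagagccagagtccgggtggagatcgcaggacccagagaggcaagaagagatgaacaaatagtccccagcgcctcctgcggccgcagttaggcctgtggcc
RefSeq held 24 promoters for 22 of the 39 members. Over 250 bases before the start and on both strands, CCAAT was found in 14 of these 24 and in 33.8% of all 32851 promoters, and TATAAA in 4 of 24 and in 12.4% of all. The median number of CpG dinucleotides was 12.5 in the Hox promoters and 6 in all promoters. A match is a description of the letters only.

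In the *Hoxa* cluster 5 of 11 genes fell and 0 rose, where 19.2% and 20.1% of all tested genes did so. The median log2 fold change of the cluster was -0.32. *Hoxa11* (ENSMUSG00000038210, chr6:52219086-52222790, minus strand) gave 699, 753 and 648 counts in WT and 240, 209 and 300 in cKO. Every cKO library lay below every WT library, at 5.85 ± 0.687 against 15.8 ± 0.795 CPM (SD, n = 3 each). The log2 fold change was -1.43 (SE 0.11), with an adjusted p of 1.34e-08 by edgeR's quasi-likelihood test and Benjamini-Hochberg adjustment. *Hoxa11os*, the antisense RNA of the locus, gave 74, 101 and 102 counts in WT and 28, 31 and 16 in cKO, a log2 fold change of -1.81 (SE 0.35, adjusted p = 0.000408 in the same test). In the GENCODE M39 annotation 43.6% of the exonic bases of *Hoxa11* lie opposite *Hoxa11os*, and the strand setting of the counting is not given in the sources used here, so the share of reads from each strand is uncertain. For the other members that changed at least 2-fold, 0 (*Hoxd9*) to 8.98% (*Hoxc13*) of exonic bases overlap another gene.

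*Hoxa10*, the next gene on the 3′ side and the highest of the cluster, is a gene of the upper leg and the uterus. It gave 2822, 2949 and 2355 counts in WT and 2612, 2498 and 2836 in cKO. The levels of 60.9 ± 1.65 and 62.4 ± 0.373 CPM (SD, n = 3 each) overlapped, with a log2 fold change of 0.04 (SE 0.048, adjusted p = 0.612 by edgeR's quasi-likelihood test and Benjamini-Hochberg adjustment), and this small value was -0.03 with upper-quartile scaling. The other *Hoxa* genes that fell changed by less than 2-fold. *Hoxa5*, known from the lung and the neck, had a log2 fold change of -0.43, *Hoxa7* one of -0.32 and *Hoxa9*, a gene of blood progenitors and the trunk, one of -0.28. *Hoxa5* overlapped between the genotypes at an adjusted p of 0.0484 and lost its call when any of WT replicates 1 or 2 or cKO replicates 1, 2 or 3 was left out, with adjusted p-values of 0.204, 0.0865, 0.176, 0.0549 and 0.101. *Hoxa7* lost its call without WT replicate 2 (adjusted p = 0.0687) and without cKO replicate 2 (adjusted p = 0.0664). *Hoxa2*, *Hoxa3*, *Hoxa4*, *Hoxa6* and *Hoxa13* had log2 fold changes from -0.82 to -0.11 and did not pass.

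In the *Hoxc* cluster the genes that fell lay at the 5′ side, where 4 of 5 members from *Hoxc9* to *Hoxc13* fell, and 0 of the 4 members from *Hoxc4* to *Hoxc8* passed in either direction. The median log2 fold change was -0.66 in the first of these ranges and -0.05 in the other, and the difference between the ranges was not tested. Among all tested genes 19.2% fell and 20.1% rose. *Hoxc13* (ENSMUSG00000001655, chr15:102829538-102837249, plus strand), the 5′ end of the cluster and a gene of hair and nails, gave 238, 322 and 272 counts in WT and 107, 69 and 100 in cKO. All cKO libraries were below all WT libraries, at 2.16 ± 0.405 against 6.26 ± 0.882 CPM (SD, n = 3 each). The log2 fold change was -1.53 (SE 0.19), with an adjusted p of 4.26e-06 by edgeR's quasi-likelihood test and Benjamini-Hochberg adjustment.

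*Hoxc10* (ENSMUSG00000022484, chr15:102875231-102880328, plus strand), which marks the hindlimb and the lumbar region, had the highest level per length of all members in WT. It gave 2173, 2155 and 1801 counts in WT and 1391, 1327 and 1290 in cKO, and 8.11% of its exonic bases are shared with *Hoxc5* on the same strand. The groups did not overlap, and the level fell from 46.0 ± 2.45 to 31.6 ± 2.79 CPM (SD, n = 3 each), with a log2 fold change of -0.54 (SE 0.070) at an adjusted p of 6.2e-06 by edgeR's quasi-likelihood test and Benjamini-Hochberg adjustment. *Hoxc11*, a hindlimb gene as well, had a log2 fold change of -0.66 at an adjusted p of 0.0247 in that test, which became 0.0707, 0.0576 and 0.118 without WT replicate 1, WT replicate 3 and cKO replicate 2. *Hoxc9*, a gene of the thoracic region, had a log2 fold change of -0.45 at an adjusted p of 0.0123, or 0.0683 without cKO replicate 2. *Hoxc12* gave 12, 17 and 22 counts in WT and 0, 6 and 21 in cKO and overlapped. *Hoxc6*, the highest of the 3′ genes and active in the thorax and the forelimb, was at 39.4 ± 3.47 CPM in WT and 35.5 ± 1.47 CPM in cKO (SD, n = 3 each), with an adjusted p of 0.0956 by edgeR's quasi-likelihood test and Benjamini-Hochberg adjustment. That p was 0.022 without WT replicate 1 and 0.0171 with upper-quartile scaling. *Hoxc4*, *Hoxc5* and *Hoxc8* had log2 fold changes of 0.10, -0.29 and 0.05 and did not pass.

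The *Hoxb* cluster was nearly silent, and only 4 of its 10 members had enough counts to be tested. *Hoxb9* (ENSMUSG00000020875, chr11:96162283-96167421, plus strand), which shapes the thoracic skeleton, gave 119, 76 and 68 counts in WT and 10, 17 and 24 in cKO. The groups did not overlap, at 1.98 ± 0.589 CPM in WT and 0.398 ± 0.148 CPM in cKO (SD, n = 3 each), with a log2 fold change of -2.30 (SE 0.38) at an adjusted p of 8.9e-05 by edgeR's quasi-likelihood test and Benjamini-Hochberg adjustment. *Hoxb4*, known from the self-renewal of blood stem cells, went the other way and was the highest *Hoxb* gene over all 6 libraries.

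*Hoxb4* (ENSMUSG00000038692, chr11:96209093-96212464, plus strand) gave 42, 40 and 39 counts in WT and 55, 70 and 82 in cKO. Its libraries did not overlap, at 0.915 ± 0.101 and 1.62 ± 0.276 CPM (SD, n = 3 each), and its log2 fold change was 0.83 (SE 0.31) with an adjusted p of 0.0396 by edgeR's quasi-likelihood test and Benjamini-Hochberg adjustment. That call was lost without WT replicate 1 (adjusted p = 0.0781), WT replicate 2 (0.107), cKO replicate 2 (0.113) and cKO replicate 3 (0.132). *Hoxb2* and *Hoxb3* had log2 fold changes of -0.87 and -0.55 and did not pass. In the 3 WT libraries *Hoxb5* was counted 0, 3 and 8 times, *Hoxb6* 5, 12 and 9 times, *Hoxb7* 6, 24 and 8 times and *Hoxb8* 2, 16 and 14 times. In the cKO libraries the same genes had 0 counts in each, then 0, 1 and 3, then 6, 2 and 5, and then 0, 6 and 0. None of these 4 had enough counts to be tested with all 6 libraries. Without cKO replicate 2, *Hoxb8* was tested through the WT libraries alone, with 0 counts left in cKO. It then had a log2 fold change of -6.43 (adjusted p = 0.0181 by edgeR's quasi-likelihood test), which is a description. *Hoxb1* and *Hoxb13*, the ends of the cluster, had 0 counts in all 6 libraries. If counts are independent, that allows up to 3 counts in each library, or 0.0605 to 0.0773 CPM.

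**Figure D3:**
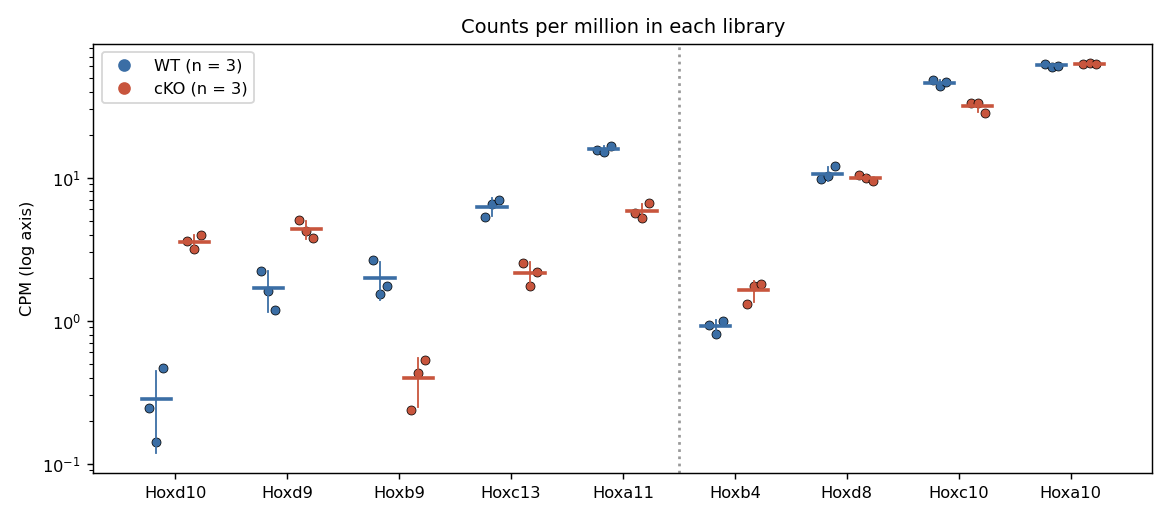
Level in CPM (log axis) of the 5 Hox genes that changed at least 2-fold (left of the dotted line) and of the highest gene of each cluster over all 6 libraries (right), with WT in blue and cKO in red. Points are libraries, horizontal bars are means and vertical bars are SDs (n = 3 each). The colours lie apart for all 5 genes on the left and for *Hoxb4* and *Hoxc10* on the right, and they overlap for *Hoxd8* and *Hoxa10*.

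Grouped by paralog number, the median log2 fold change was -0.55 over the 5 tested genes of paralogs 1 to 3, of which 0 rose. Among paralogs 4 to 8, 1 of 11 tested genes rose and 2 fell, with a median of -0.15. Among paralogs 9 to 13, 2 of 13 rose and 7 fell, with a median of -0.54. This range held all 5 genes that changed at least 2-fold. Among all tested genes 20.1% rose, 19.2% fell and 11.2% changed at least 2-fold, and the difference between the ranges was not tested. Genes of the same paralog number that passed the test differed in direction in groups 9 and 10. In paralog group 9, *Hoxd9* rose while *Hoxa9*, *Hoxb9* and *Hoxc9* fell. In group 10, *Hoxd10* rose, *Hoxc10* fell and *Hoxa10* had a log2 fold change of 0.04. Since *Hoxd10* had enough counts to be tested only through the cKO libraries, its part in group 10 is a description. In group 11, *Hoxa11* and *Hoxc11* fell and *Hoxd11* had a log2 fold change of 1.37 that did not pass. In group 4, *Hoxb4* rose and *Hoxa4*, *Hoxc4* and *Hoxd4* had log2 fold changes of -0.55, 0.10 and 0.75 that did not pass. In groups 2, 3, 5, 6 and 13 every tested member had a log2 fold change below 0, of which *Hoxa5* and *Hoxc13* passed, although those of *Hoxa2*, *Hoxb3* and *Hoxa6* were above 0 when a library was left out. In group 8 *Hoxc8* was at 0.05 and *Hoxd8* at -0.10.

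A ratio of genes inside a library does not depend on how libraries are scaled. It was taken against the gene of each cluster with the highest level per length over all libraries. For each 100 counts of *Hoxd8* there were 2.49, 1.39 and 3.86 counts of *Hoxd10* in the WT libraries and 34.3, 32.2 and 41.3 in the cKO libraries. For *Hoxd9* the same ratio was 22.9, 15.8 and 9.87 in WT and 48.2, 42.5 and 40 in cKO. Both ratios were higher in all 3 cKO libraries than in any WT library. For each 100 counts of *Hoxa10* there were 24.8, 25.5 and 27.5 counts of *Hoxa11* in WT and 9.19, 8.37 and 10.6 in cKO. For each 100 counts of *Hoxc10* there were 11, 14.9 and 15.1 counts of *Hoxc13* in WT and 7.69, 5.2 and 7.75 in cKO, so *Hoxc13* was lower also against a gene that itself fell. The ratio of *Hoxb9* to 100 counts of *Hoxb4* was 283, 190 and 174 in WT and 18.2, 24.3 and 29.3 in cKO, in which both genes moved. In the WT libraries *Hoxb9*, not *Hoxb4*, was the higher gene. Each ratio is a description, since the genes were chosen by the comparison itself.

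**Figure D4:**
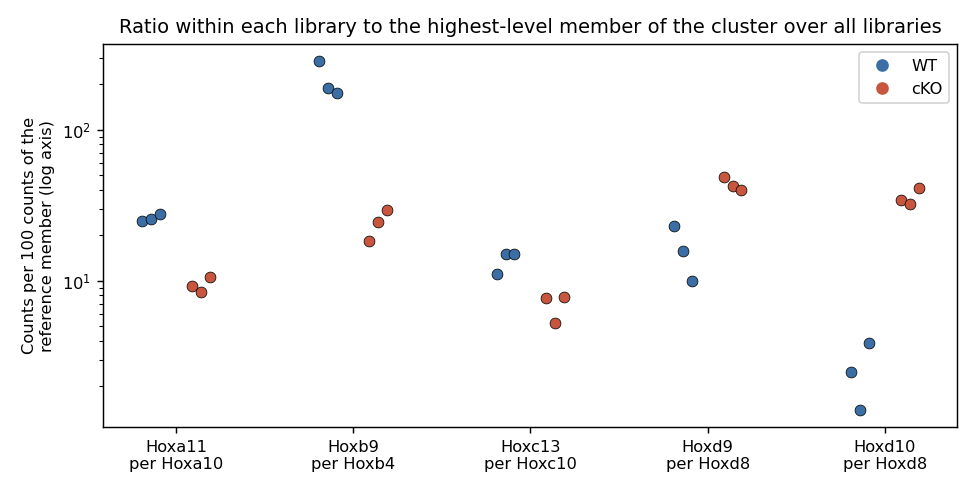
Counts of each Hox gene that changed at least 2-fold, per 100 counts of a reference gene in the same library (log axis). The reference is the gene of its cluster with the highest level per length over all libraries. WT is in blue and cKO in red, with 1 point per library. The colours are apart for all 5 ratios. The mean ratio of *Hoxd10* to *Hoxd8* is 2.58 in WT and 35.9 in cKO, and that of *Hoxa11* to *Hoxa10* is 25.9 in WT and 9.38 in cKO.

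The other transcripts of the clusters were few. Of 45 noncoding genes that lie inside the 4 clusters, 12 had enough counts to be tested, 0 rose and 1 fell, which was *Hoxa11os*. Among all tested genes 20.1% rose and 19.2% fell. *Hotair*, the antisense RNA of the *Hoxc* cluster, gave 11, 12 and 9 counts in WT and 5, 0 and 11 in cKO. *Hotairm1*, a noncoding gene of the *Hoxa* cluster, had a log2 fold change of -0.23 and did not pass. Of the 8 protein coding genes that flank the clusters 4 were tested. *Skap2*, beyond the 3′ end of the *Hoxa* cluster, rose with a log2 fold change of 0.32, and *Smug1*, beside *Hoxc4*, fell with one of -0.28. *Evx1* and *Evx2*, homeobox genes at the 5′ ends of the *Hoxa* and *Hoxd* clusters, had 0 counts in all libraries and 0 to 4 counts, respectively.

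Hox proteins bind DNA together with TALE homeodomain cofactors, and of 9 such genes tested 1 rose and 5 fell, where 20.1% and 19.2% of all tested genes did so. Their median log2 fold change was -0.25. *Meis2*, whose product joins Hox and Pbx proteins on DNA and marks the upper part of the limb, gave 1185, 1377 and 1189 counts in WT and 513, 576 and 551 in cKO. The groups did not overlap, and the level fell from 28.2 ± 2.19 to 12.9 ± 1.34 CPM (SD, n = 3 each), with a log2 fold change of -1.13 (SE 0.091) at an adjusted p of 1.66e-08 by edgeR's quasi-likelihood test and Benjamini-Hochberg adjustment. *Pknox2*, *Meis1* and *Pknox1* fell with log2 fold changes of -0.82, -0.47 and -0.31, and *Pbx2* rose with one of 0.25.

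The chromatin regulators of the Hox clusters differed by less than 2-fold. Of 23 Polycomb genes, which keep Hox clusters silent, 4 rose and 6 fell, all by less than 2-fold, with a median log2 fold change of -0.03. Of 12 Trithorax and other activating genes 4 rose and 1 fell, with a median of 0.08. Among all tested genes 39.3% passed in either direction. *Kdm6a*, an X-linked demethylase of the Polycomb mark, had the largest value of that list, at 0.95 (SE 0.068, adjusted p = 3.48e-09 by edgeR's quasi-likelihood test and Benjamini-Hochberg adjustment), in libraries that also differ in *Xist*. *Kdm6b*, its autosomal relative, fell with a log2 fold change of -0.29. Of the 6 Cdx and ParaHox genes, of which the Cdx genes act upstream of Hox genes in the embryo, 0 could be tested and 1 count was found in all libraries together.

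Retinoic acid is a known inducer of 3′ Hox genes in the embryo. Of the 10 genes listed for its synthesis, clearance and receptors, 8 were tested and all 8 fell. Among all tested genes 19.2% fell, and 4.64% fell at least 2-fold. *Aldh1a2*, the main enzyme of retinoic acid synthesis in the embryo, gave 4076, 4486 and 3924 counts in WT and 41, 29 and 46 in cKO. The level fell from 94.0 ± 6.13 to 0.905 ± 0.154 CPM (SD, n = 3 each), with a log2 fold change of -6.68 (SE 0.099) at an adjusted p of 7.61e-18 by edgeR's quasi-likelihood test and Benjamini-Hochberg adjustment. *Rarb*, a receptor gene that retinoic acid itself induces, gave 295, 381 and 270 counts in WT and 13, 22 and 16 in cKO (log2 fold change -4.13, SE 0.24, adjusted p = 1.58e-10 in the same test). *Aldh1a3*, another synthesis enzyme, gave 92, 117 and 62 counts in WT and 6, 9 and 10 in cKO. Its log2 fold change was -3.33 (SE 0.39, adjusted p = 1.6e-06 in the same test). It had enough counts to be tested only through the WT libraries, so its estimate is a description. None of these genes overlapped between the genotypes. *Rdh10*, *Aldh1a1*, *Cyp26b1*, *Rarg* and *Rara* fell with log2 fold changes from -0.70 to -0.17.

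The genes that distinguish the limbs differed in direction. *Tbx5*, which is active in the forelimb and not in the hindlimb of the embryo, gave 163, 189 and 129 counts in WT and 510, 466 and 541 in cKO. All cKO libraries lay above all WT libraries, at 11.9 ± 0.201 against 3.58 ± 0.245 CPM (SD, n = 3 each), a log2 fold change of 1.73 (SE 0.13, adjusted p = 3.77e-09 by edgeR's quasi-likelihood test and Benjamini-Hochberg adjustment). *Pitx1*, a hindlimb gene, gave 2294, 2161 and 2000 counts in WT and 1341, 1295 and 1272 in cKO, and fell with a log2 fold change of -0.66 (SE 0.075, adjusted p = 1.39e-06 in the same test). *Tbx4*, the other hindlimb gene, rose with a log2 fold change of 0.41 (SE 0.092, adjusted p = 0.00168 in the same test). Counts of all 3 genes were found in each of the 6 libraries, and the hindlimb genes *Pitx1* and *Tbx4* moved in opposite directions. The share of forelimb and hindlimb bone in each culture is not given, and its part in the Hox values was not tested. Of 11 genes of limb mesenchyme, 2 rose and 6 fell, where 20.1% and 19.2% of all tested genes did so. Their median log2 fold change was -0.36. *Twist2*, a repressor of bone cell differentiation, gave 669, 686 and 562 counts in WT and 230, 216 and 225 in cKO (log2 fold change -1.45, SE 0.11, adjusted p = 7.81e-09 by edgeR's quasi-likelihood test and Benjamini-Hochberg adjustment).

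**Figure D5:**
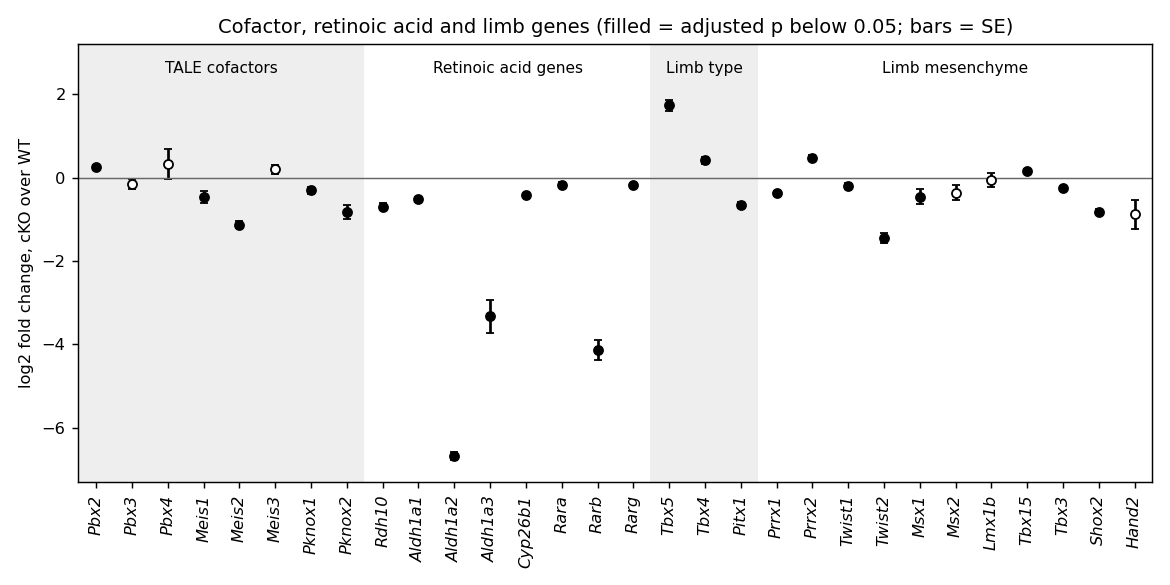
Log2 fold change (cKO over WT) of TALE cofactor, retinoic acid, limb type and limb mesenchyme genes with enough counts to be tested, except for 1 cofactor gene that is not drawn. Points are estimates from 3 libraries per genotype, bars are SEs, and filled points have an adjusted p below 0.05. *Aldh1a2* at -6.68 is the lowest point and *Tbx5* at 1.73 the highest.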

How the data were processed

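Per the labels, the authors mapped trimmed paired-end reads (150 bp, directional library kit) to mm39 with HISAT2 2.0.5 and counted them on genes with featureCounts 1.55.0-p3. The deposited values are raw counts per gene. The strand setting and the annotation release are not given in the sources used here. Between 63.4% and 65.7% of counts from 1 to 10 were even, as when both mates are counted.

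From the counts, genotype was tested with no other term in edgeR 4.0.16 (R 4.3.3) by filterByExpr, TMM scaling, non-robust glmQLFit and glmQLFTest, with Benjamini-Hochberg adjustment over 17146 genes. CPM use TMM-scaled library sizes, and the SE is the log2 fold change divided by the square root of F. Replicates differed by more than sampling noise (chi-square per gene 4.8 to 13.9) and were counted separately. Floors of 3 counts cover counting error only and take counts as independent. They would be higher where both mates of a pair are counted. The scripts were tested on simulated data beforehand.

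Counts per library and statistics were given for members that changed at least 2-fold and for the highest member per length of each cluster over all libraries, and for genes of the other lists that changed at least 2-fold. Other genes given by values were chosen after these were seen. Members and lists were chosen with earlier results of these data known. Alternatives were DESeq2 1.42.0, limma-voom (limma 3.58.1), other scalings and filters, halved counts, a replicate block and leaving out each library. Values of 1 Hox gene and 1 cofactor gene, and 1 sequence, are not reported here, and both genes stay in the counts and medians.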

Additional observations from a re-analysis of the deposited data

How the results depend on the processing

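Results were recomputed under 15 alternatives. *Hoxd10* (3.34 to 4.20), *Hoxd9* (1.17 to 1.61), *Hoxa11* (-1.52 to -1.36), *Hoxb9* (-2.57 to -2.03) and *Hoxc13* (-1.66 to -1.40) kept their direction and their call in all 15. For *Hoxd10*, which had enough counts to be tested only through the cKO libraries, this is a description. The median log2 fold change of the tested Hox genes moved from -0.31 to -0.37 with upper-quartile scaling and to -0.43 when all genes with at least 1 count were tested, which brought in 37 members in place of 29, and lay between -0.36 and -0.29 with each library left out. Of genes that did not pass, *Hoxa10* was -0.03 and *Hoxc8* -0.01 with upper-quartile scaling, *Hoxa2* 0.17 and *Hoxb3* 0.07 without WT replicate 1, *Hoxa6* 0.04 without cKO replicate 1 and *Hoxa2* 0.09 without cKO replicate 3, and the cause was not tested. With each library left out, *Hoxa2* ranged from -0.47 to 0.17, *Hoxa6* from -0.46 to 0.04 and *Hoxb3* from -0.80 to 0.07. *Hoxa5* lost its call in 9 alternatives and *Hoxb4* in 6.

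No shared deviation was seen between libraries with the same replicate number, whose deviations correlated at -9.23e-05, 0.00116 and -0.0136 across genes. Whether such libraries were prepared together is not stated, and these values cannot decide it. With the replicate block, 2 Hox genes rose and 9 fell, and the median was -0.30, where *Hoxb4* (adjusted p = 0.0644) and *Hoxa5* (adjusted p = 0.0744) no longer passed in edgeR's quasi-likelihood test. Depth limits most *Hoxb* genes and, at both ends of their cluster, *Hoxd1*, *Hoxd3*, *Hoxd12* and *Hoxd13*. A count of 0 there allows 3 counts in a library, if counts are independent.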
